A study of Mus musculus with 12 samples.

Results

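The interferon response and antigen presentation genes described here are 45 named mouse genes, of which 39 were measured by 61 probe sets of an Affymetrix whole-transcript array. They were chosen by symbol: a probe set counted as a member when the platform annotation gave it exactly 1 symbol and that symbol was on the list, and the whole table held 21780 such probe sets for 19934 symbols. Probe sets of Isg15, Gbp2, H2-K1, H2-D1 and H2-T23 carried several symbols, Ifi44 had no listed probe set, and these 6 genes were not analysed here. By role, the members measured were 4 of 4 receptors, 5 of 5 transcription factors, 3 of 3 cytosolic RNA sensors, 16 of 19 effectors, 3 of 3 IFITM genes and 8 of 11 antigen processing genes. For 35 members there was 1 probe set, and where a gene had several (Ifitm1 2, Ifitm2 3, Irf1 2, Nlrc5 19) the one with the highest mean over all cultures stands for it in counts.

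The samples were 12 adherent, untreated cell cultures, 1 array each. Tumour cells came from glioblastomas raised in adult mice of 3 transgenic lines, into whose brains DF-1 cells (a chicken fibroblast line) releasing the retroviral vector RCAS-PDGFB-HA were injected. The vector enters only cells that display its receptor, tv-a, which is under the GFAP, nestin or CNP promoter in these lines. The tumour groups were mGC1_GFAP from G/tv-a mice, mGC2_NES from N/tv-a mice and mGC3_CNP from C/tv-a mice, with 3 cultures each. The comparison group was 3 neural stem cell (NSC) cultures of the subventricular zone of adult mice, 1 from each of the same lines. All 12 cultures, NSC included, were Arf-/-, so no culture had wild-type Arf. Tumour and NSC cultures differed both in having passed through PDGFB-driven tumour growth and in the tissue they were taken from, and these cannot be told apart here. The labels call the tumour cultures biological replicates without naming the animals, so p-values measure the spread between cultures.

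Interferons are secreted proteins that bind receptors on the cell surface and, through JAK kinases and STAT and IRF transcription factors, switch on interferon-stimulated genes. Type I interferon acts mainly through ISGF3, a complex with STAT2 and IRF9 that binds the interferon-stimulated response element (ISRE), while interferon gamma acts mainly at gamma-activated sites (GAS). The products include sensors of viral RNA, proteins that block virus entry or replication, and the machinery that cuts proteins into peptides, moves them into the endoplasmic reticulum and shows them on MHC class I molecules to T cells. Neural stem cells are known to hold some interferon-stimulated genes at a high basal level without added interferon.

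Values are log2 intensities as deposited, differences are on the same log2 scale with their standard error (SE) from limma, and group levels are mean ± SD. A difference was called at a Benjamini-Hochberg adjusted p under 0.05 over all probe sets. Spermatid transcripts taken as absent from such cells (Prm2, Tnp1, Tnp2, Odf1) read 5.60 to 7.42, so a value up to 7.42 does not show that a transcript was present, and a fall that ends there is a lower bound. That level is no firm limit, since Prm3, a further spermatid transcript that was not among those 4, read 7.68 to 8.01 over the 12 arrays. Array medians lay between 7.60 and 7.66. The counts of cell type markers that follow stand beside 17.8% of all 19934 genes called higher and 19.1% called lower in tumour cultures. Of 14 microglia and macrophage markers 1 was called higher and 2 lower in tumour cultures, and only Cx3cr1 and Cd68 read above 7.42 on any array. P2ry12 differed by -0.81 ± 0.14 and C1qb by 0.18 ± 0.06 (SE; limma adjusted p = 0.000603 and 0.0494), both below 7.42. Cd68 averaged 7.90 in tumour cultures and 8.48 in NSC cultures (difference -0.57 ± 0.11, SE; limma adjusted p = 0.00137), and the list averaged 6.40 to 6.55 on tumour arrays and 6.49 to 6.59 on NSC arrays. None of 9 lymphocyte markers passed that level. Oligodendrocyte precursor markers averaged 12.62 to 12.79 on tumour arrays and 9.82 to 10.09 on NSC arrays, and neural stem cell markers 8.63 to 9.47 on tumour arrays and 10.91 to 11.19 on NSC arrays. Of 7 precursor markers 5 were called higher and 0 lower, while Olig1 and Olig2 differed by -0.038 and -0.135 (limma adjusted p = 0.674 and 0.101). Of 8 stem cell markers 0 were called higher and 6 lower, while Sox2 and Fabp7 were not called (limma adjusted p = 0.184 and 0.0617). Of 10 pericyte and fibroblast markers 2 were called higher and 2 lower, and the list averaged 6.50 to 6.84 on tumour arrays and 6.82 to 6.93 on NSC arrays. Among them Acta2, smooth muscle actin, averaged 7.18 in tumour cultures and 9.93 in NSC cultures (difference -2.76 ± 0.29, SE; limma adjusted p = 1.75e-05). Of 10 endothelial markers 2 were called higher and 1 lower, and that list averaged 6.63 to 6.84 on tumour arrays and 6.70 to 6.75 on NSC arrays. Most precursor and stem cell markers, Acta2, Cd68 and P2ry12 thus moved with the tumour and NSC differences below, and their part in them was not tested. In such bulk samples, fewer cells of a type and less RNA per cell cannot be told apart.

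Tumour cultures and NSC cultures differed in many of these genes, in both directions. Of the 39 members, 21 were called between tumour and NSC cultures (limma, 4 groups on 12 arrays), 9 higher and 12 lower in tumour cultures. The background was large: 36.9% of all 19934 genes were called, 17.8% higher and 19.1% lower. The median difference over the members was -0.13, and 0.01 over all genes. In 12 members no tumour culture overlapped any NSC culture, as in 27.5% of all genes. Called with a difference over 1 log2 unit were 4 of the 39 members, Ifitm3, Gbp3, Ifi35 and Mx2. Of all 19934 genes 1505 (7.55%) were called with such a difference. In 15 members both means lay at or below 7.42, and 6 of those were among the called ones (Ifih1, Dhx58, Mx2, Oasl2, Rtp4 and Xaf1). With the highest Prm3 reading of 8.01 as the limit, a setting added after seeing the data, this held for 17 members, of which 7 were called, Parp9 being the further one. Higher calls rested in part on the NSC culture of the N/tv-a line, without which 4 members were called higher.

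**Figure D1:**
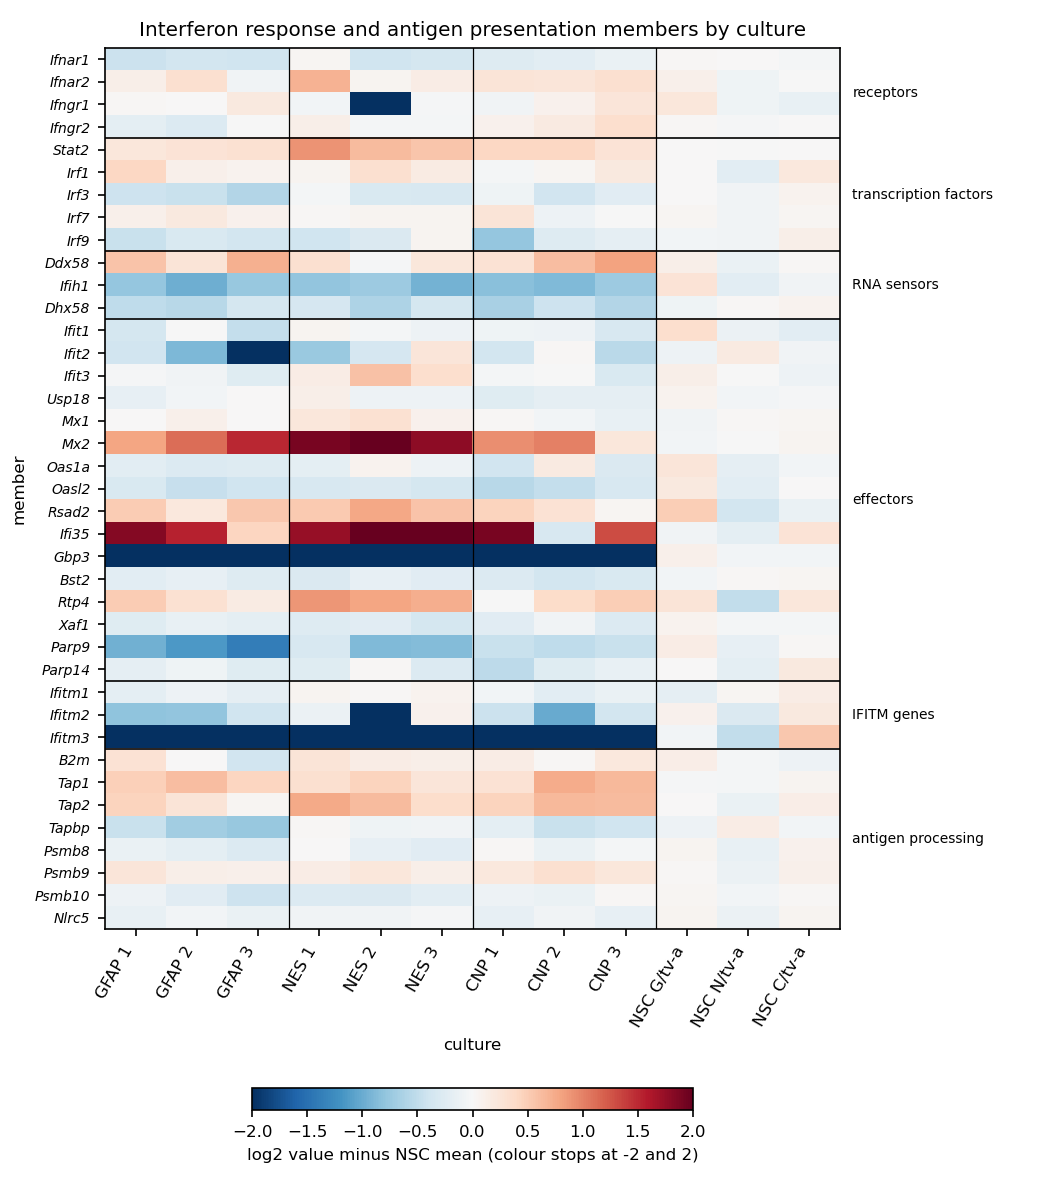
Difference of each culture (columns) from the NSC mean on the log2 scale, for the 39 measured members (rows, in role groups); colour stops at -2 and 2. Ifitm3 and Gbp3 are dark blue in all 9 tumour cultures, Mx2 and Ifi35 are mostly red, and Ifngr1, Ifit2 and Ifitm2 each show 1 dark cell in a single tumour culture.

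The receptors were close to their NSC level. Only Ifnar1, a chain of the type I interferon receptor, was called among the 4, beside 36.9% of all genes. It read a lowest, median and highest value of 10.11, 10.20 and 10.59 in tumour cultures, against 10.57, 10.57 and 10.52 in the G/tv-a, N/tv-a and C/tv-a NSC cultures. Tumour cultures were below all NSC cultures in 8 of 9 cases, and mGC2_NES replicate 1 was the exception. The difference was -0.28 ± 0.08 (SE; limma adjusted p = 0.018), and it missed the threshold without the G/tv-a or the N/tv-a NSC culture (adjusted p up to 0.0632). Ifnar2, the other chain, differed by 0.23 ± 0.12 (limma adjusted p = 0.174). The interferon gamma receptor chains Ifngr1 and Ifngr2 differed by -0.23 ± 0.40 and 0.02 ± 0.07 (limma adjusted p = 0.721 and 0.887), and the wide error of Ifngr1 came with 1 mGC2_NES culture described below.

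Among the transcription factors, Stat2 rose and Irf3 fell in tumour cultures. Stat2, the STAT that type I interferon signalling uses in ISGF3, read 8.25, 8.30 and 8.33 in mGC1_GFAP, 8.92, 8.66 and 8.58 in mGC2_NES and 8.43, 8.44 and 8.30 in mGC3_CNP cultures, against 8.03, 8.01 and 8.03 in NSC cultures. All 9 tumour cultures were above the NSC cultures, mGC2_NES most of all. The difference was 0.45 ± 0.07 (SE; limma adjusted p = 0.000327). Irf3, which carries the signal of the RNA sensors to the interferon beta gene, had a lowest, median and highest value of 8.69, 8.97 and 9.25 in tumour cultures, against 9.29, 9.21 and 9.36 in NSC cultures. It was lower in tumour cultures, with a difference of -0.31 ± 0.08 (limma adjusted p = 0.0102), with mGC2_NES replicate 1 inside the NSC range, and missed the threshold without the C/tv-a NSC culture (adjusted p = 0.057). Irf9, the DNA-binding partner in ISGF3, averaged 7.72 ± 0.22 in tumour cultures and 8.05 ± 0.10 in NSC cultures (SD, n = 9 and 3) and differed by -0.33 ± 0.12 (limma adjusted p = 0.0577). It passed after quantile normalization or median centring of the arrays (adjusted p = 0.0415 and 0.0468). Irf1 and Irf7, both induced by interferon, differed by 0.15 ± 0.10 and 0.07 ± 0.07 (limma adjusted p = 0.313 and 0.486), and Irf7 lay below 7.42 throughout.

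All 3 cytosolic RNA sensors were called, beside 36.9% of all genes, and not in the same direction. Ddx58 encodes RIG-I, which recognises short viral RNA ends, Ifih1 encodes MDA5, which recognises long double-stranded RNA, and Dhx58 encodes LGP2, a helicase that modulates both. Ifih1 read 5.94, 5.74 and 5.95 in mGC1_GFAP, 5.92, 5.99 and 5.76 in mGC2_NES and 5.87, 5.83 and 5.98 in mGC3_CNP cultures, against 6.99, 6.50 and 6.64 in NSC cultures. The tumour cultures formed a narrow band below all NSC cultures, and both groups were within the range of absent transcripts. Its difference was -0.82 ± 0.10 (SE; limma adjusted p = 4.09e-05), and Dhx58, with 6.31, 6.45 and 6.62 as lowest, median and highest tumour values against 6.87, 6.98 and 7.03 in NSC cultures, differed by -0.49 ± 0.08 (limma adjusted p = 0.000488). Ddx58 was the one sensor measured above 7.42 in every culture and the one that rose: it averaged 8.78 ± 0.27 in tumour cultures and 8.36 ± 0.12 in NSC cultures (SD, n = 9 and 3), a difference of 0.42 ± 0.12 (limma adjusted p = 0.018). Without the N/tv-a or the C/tv-a NSC culture Ddx58 missed the threshold (adjusted p up to 0.0922).

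Promoter windows of the members were read for the ISRE and the GAS. The windows are RefSeq's on GRCm38.p6, 300 bases each, with 250 bases before and 50 after the annotated start. A pair of motifs was searched on both strands, GAAA, any 2 bases and GAAA for the ISRE, and TTC, any 3 bases and GAA for the GAS. Windows were held for 36 of the 45 members. The ISRE pattern was in 15 of these 36 (41.7%), and in 3.44% of all 32851 windows or 3.99% of all genes with a window. Those 15 were Stat2, Ddx58, Ifih1, Ifit1, Ifit3, Isg15, Oas1a, Rsad2, Gbp2, Gbp3, Bst2, Ifitm2, Ifitm3, B2m and H2-T23. The GAS pattern was in 9 of 36 (25.0%), and in 8.30% of all windows or 9.55% of all genes with a window. Of the 12 ISRE-bearing members with a test, 3 were higher and 4 lower in tumour cultures and 5 were not called. Of the 18 tested members with a window and no ISRE match, some of which held a GAS match, 3 were higher, 6 lower and 9 not called. Of all genes 17.8% were called higher and 19.1% lower. A match is a run of letters and not a measured binding site. The windows of the 2 oppositely moving sensors are shown because each holds 1 match (in capitals, as in all windows below, where capitals mark the ISRE pattern on either strand). Ifih1 is on the minus strand at chr2:62646206-62646505, with the match 32 bases after the start, and Ddx58 is on the minus strand at chr4:40239776-40240075, with the match 2 bases after it on the opposite strand.
Ifih1: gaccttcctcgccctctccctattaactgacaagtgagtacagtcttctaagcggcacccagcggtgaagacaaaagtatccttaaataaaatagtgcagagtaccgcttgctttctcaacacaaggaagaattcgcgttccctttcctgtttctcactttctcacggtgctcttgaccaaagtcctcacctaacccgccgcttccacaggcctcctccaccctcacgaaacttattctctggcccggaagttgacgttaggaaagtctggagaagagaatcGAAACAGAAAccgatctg
Ddx58: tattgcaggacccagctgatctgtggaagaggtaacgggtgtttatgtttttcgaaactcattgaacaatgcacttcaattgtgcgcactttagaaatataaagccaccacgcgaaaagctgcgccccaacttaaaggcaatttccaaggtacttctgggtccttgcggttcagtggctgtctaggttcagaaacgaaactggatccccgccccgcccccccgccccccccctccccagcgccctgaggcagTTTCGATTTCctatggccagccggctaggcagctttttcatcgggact

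Of the effectors 9 of 16 were called (36.9% of all genes), 4 higher (17.8%) and 5 lower (19.1%) in tumour cultures. Gbp3, a guanylate-binding protein of the GTPase family that acts on intracellular pathogens, was lost to the level of absent transcripts. It read 6.42, 6.43 and 6.10 in mGC1_GFAP, 6.09, 6.29 and 6.28 in mGC2_NES and 6.12, 6.16 and 6.31 in mGC3_CNP cultures, against 9.22, 9.06 and 9.05 in NSC cultures. All 9 tumour cultures were far below the NSC cultures, which were alike. The difference was -2.86 ± 0.08 (SE; limma adjusted p = 4.91e-10), so that NSC cultures held an estimated 7.28-fold the tumour level. Since tumour cultures read within the range of absent transcripts, the true ratio may be larger. RefSeq has 2 windows for Gbp3, both on the plus strand, and the one at chr3:142560106-142560405 held no ISRE match. The other, chr3:142559794-142560093, is shown for the pair of overlapping ISRE matches that begin 45 and 39 bases before the start.
Gbp3: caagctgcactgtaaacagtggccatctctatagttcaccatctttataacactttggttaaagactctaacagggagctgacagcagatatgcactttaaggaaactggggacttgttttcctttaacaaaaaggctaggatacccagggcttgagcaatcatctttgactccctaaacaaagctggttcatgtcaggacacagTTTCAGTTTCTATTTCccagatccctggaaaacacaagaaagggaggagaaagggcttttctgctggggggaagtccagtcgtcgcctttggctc

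Ifi35 and Mx2 were the effectors that rose most. Ifi35, an interferon-induced leucine zipper protein, read 8.90, 8.60 and 7.50 in mGC1_GFAP, 8.80, 9.15 and 9.40 in mGC2_NES and 8.96, 6.74 and 8.37 in mGC3_CNP cultures, against 6.99, 6.86 and 7.33 in NSC cultures. Of the 9 tumour cultures 8 were above every NSC culture and mGC3_CNP replicate 2 was below them all. The difference was 1.43 ± 0.40 (SE; limma adjusted p = 0.0147), an estimated 2.70-fold from NSC values within the range of absent transcripts. It missed the threshold without the G/tv-a or the N/tv-a NSC culture (adjusted p up to 0.0628). The Ifi35 window, plus strand at chr11:101448162-101448461, is shown as a contrast, since it held no ISRE match. It did hold 1 GAS match, 7 bases after the start, which is not in capitals.
Ifi35: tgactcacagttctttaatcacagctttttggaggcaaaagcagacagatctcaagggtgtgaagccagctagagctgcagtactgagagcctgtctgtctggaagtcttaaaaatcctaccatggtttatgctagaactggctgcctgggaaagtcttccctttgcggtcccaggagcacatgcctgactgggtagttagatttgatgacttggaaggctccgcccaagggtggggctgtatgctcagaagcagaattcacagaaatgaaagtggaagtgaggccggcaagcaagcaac

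Mx2, a dynamin-like GTPase with antiviral activity, read 6.02, 6.33 and 6.73 in mGC1_GFAP, 7.11, 7.29 and 7.003 in mGC2_NES and 6.15, 6.23 and 5.45 in mGC3_CNP cultures, against 5.16, 5.22 and 5.28 in NSC cultures. Every tumour culture was above every NSC culture, but all were at or below 7.42. The difference was 1.26 ± 0.17 (SE; limma adjusted p = 0.000105). Mx1, its paralogue, differed by 0.06 ± 0.06 (limma adjusted p = 0.491), also below that level.

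Of the other called effectors, Parp9 fell furthest. Parp9, an ADP-ribosyltransferase-like protein that acts with the ubiquitin ligase Dtx3l, read 6.53, 6.34 and 6.11 in mGC1_GFAP, 7.16, 6.61 and 6.62 in mGC2_NES and 7.04, 6.98 and 7.04 in mGC3_CNP cultures, against 7.64, 7.32 and 7.51 in NSC cultures. No tumour culture reached the NSC range, and the difference was -0.77 ± 0.12 (SE; limma adjusted p = 0.000375). Dtx3l, which is not a member, differed by -1.03 ± 0.19 (limma adjusted p = 0.000985), and both genes are on chromosome 16. Oasl2, an oligoadenylate synthetase-like protein, differed by -0.39 ± 0.08, Bst2, which tethers budding virus to the cell surface, by -0.25 ± 0.05, and Xaf1, a partner of the apoptosis inhibitor XIAP, by -0.22 ± 0.06 (limma adjusted p = 0.00267, 0.00169 and 0.00974). No tumour culture overlapped the NSC cultures in these 3 genes, although Xaf1 missed the threshold without the G/tv-a NSC culture (adjusted p = 0.0579).

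Rtp4 and Rsad2 passed the test by a small margin and leaned on the N/tv-a NSC culture. Rtp4, a chaperone-like protein induced by interferon, had 6.25, 6.75 and 7.13 as lowest, median and highest tumour values, against 6.52, 5.77 and 6.49 in the G/tv-a, N/tv-a and C/tv-a NSC cultures. The groups overlapped, and the N/tv-a NSC culture was the lowest of all 12. The difference was 0.47 ± 0.15 (SE; limma adjusted p = 0.0329), 0.22 without that culture, and not called with the mouse line as a block (adjusted p = 0.0918). Rsad2, which encodes the antiviral enzyme viperin, read 8.19, 7.32 and 7.57 in the same NSC cultures and averaged 8.13 ± 0.22 in tumour cultures (SD, n = 9), a difference of 0.43 ± 0.16 (limma adjusted p = 0.0492). It missed the threshold in 9 of 12 fits that left out 1 array, after quantile normalization or median centring and with the mouse line as a block.

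The Ifit genes, antiviral proteins that bind foreign RNA ends, were not called between tumour and NSC cultures. Ifit1, Ifit2 and Ifit3 differed by -0.16 ± 0.12, -0.64 ± 0.40 and 0.04 ± 0.10 (SE; limma adjusted p = 0.363, 0.247 and 0.785). Without mGC1_GFAP replicate 3 the Ifit2 difference was -0.40 (limma adjusted p = 0.146). Usp18, which removes Isg15 from proteins and damps the receptor, differed by -0.10 ± 0.06, Oas1a, an oligoadenylate synthetase, by -0.16 ± 0.12, and Parp14, an ADP-ribosyltransferase, by -0.21 ± 0.10 (limma adjusted p = 0.269, 0.328 and 0.129). Of these 6, Ifit2 alone was measured above 7.42.

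**Figure D2:**
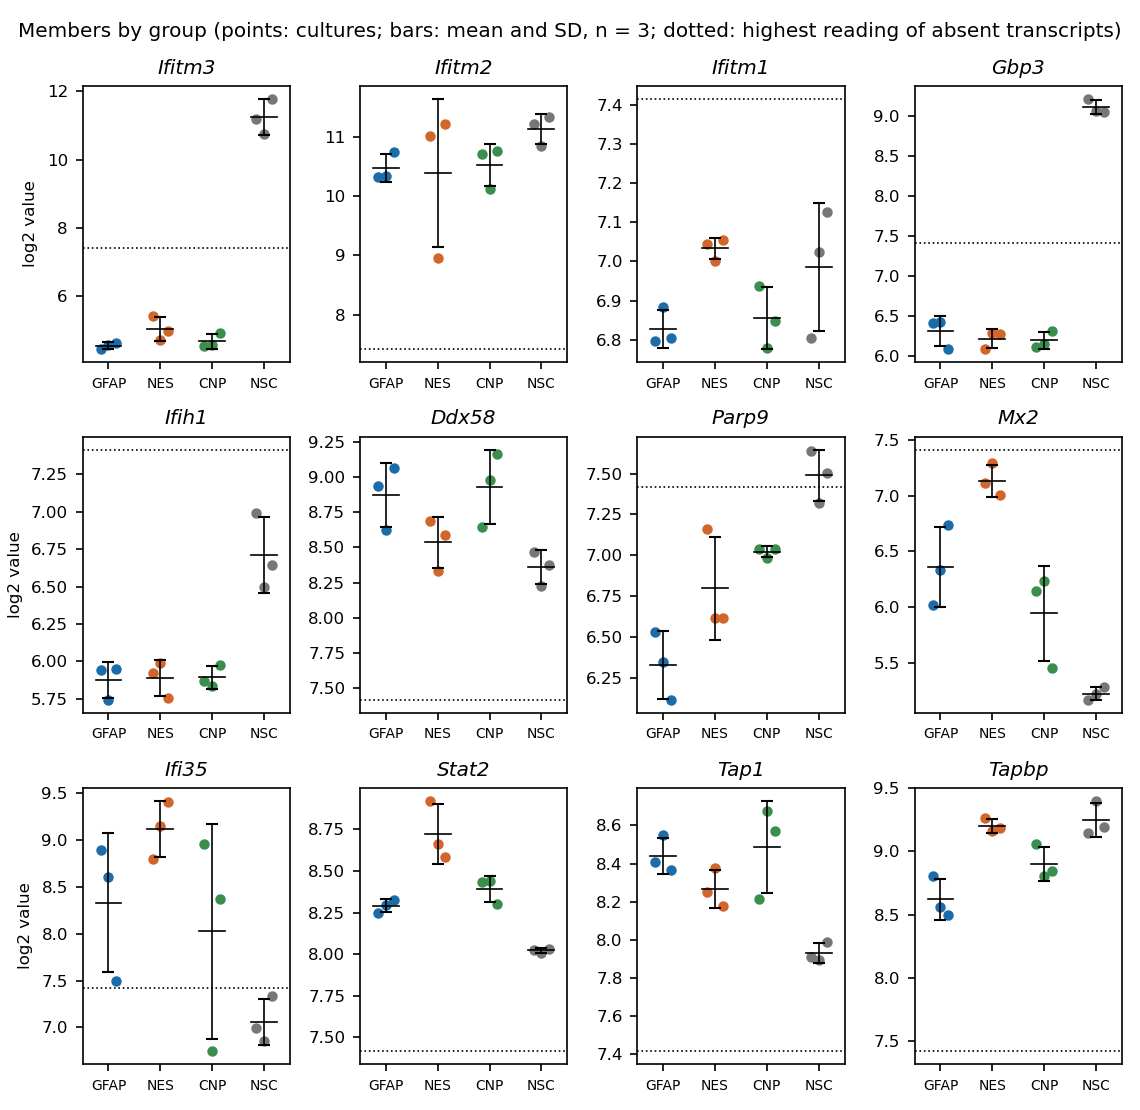
Log2 values of 12 members in each culture (points), with the mean and SD of each group (bars, n = 3) and 7.42, the highest reading of transcripts taken as absent, as a dotted line; each panel has its own axis. Ifitm3 and Gbp3 in tumour cultures lie below the line and in NSC cultures above it, while Mx2 and Ifih1 lie below it in all cultures.

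The 3 IFITM genes, which encode small membrane proteins that hinder the fusion of viruses with cell membranes, behaved unlike each other. Ifitm3 showed the largest difference of the 39 members measured. It read 4.45, 4.59 and 4.65 in mGC1_GFAP, 5.42, 4.73 and 4.99 in mGC2_NES and 4.54, 4.58 and 4.93 in mGC3_CNP cultures, against 11.19, 10.76 and 11.79 in NSC cultures. All tumour cultures read below 5.60, the lowest reading of absent transcripts, and all NSC cultures were far above 7.42, the highest. The difference was -6.48 ± 0.19 (SE; limma adjusted p = 5.14e-10), so that NSC cultures held an estimated 89.4-fold the tumour level. With tumour readings this low, the true ratio may be larger. Against the NSC culture of its own line, each tumour group mean was lower, with a difference of -6.63 in mGC1_GFAP, -5.71 in mGC2_NES and -7.10 in mGC3_CNP.

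Ifitm2 kept a high level in tumour cultures. Its brightest probe set read 10.33, 10.35 and 10.74 in mGC1_GFAP, 11.01, 8.95 and 11.22 in mGC2_NES and 10.71, 10.12 and 10.76 in mGC3_CNP cultures, against 11.22, 10.85 and 11.33 in NSC cultures. Most tumour cultures were below the NSC cultures, but mGC2_NES replicates 1 and 3 were within their range and replicate 2 was the lowest. The difference was -0.67 ± 0.38 (SE; limma adjusted p = 0.21), and -0.43 without mGC2_NES replicate 2 (limma adjusted p = 0.0594). Its other 2 probe sets, which list the same transcripts, gave -0.73 ± 0.38 and -0.51 ± 0.34 (limma adjusted p = 0.164 and 0.279).

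Ifitm1 was not shown to be present in any culture. Its brighter probe set had 6.78, 6.88 and 7.05 as lowest, median and highest tumour values, against 6.81, 7.03 and 7.13 in NSC cultures, and its 2 probe sets differed by -0.08 ± 0.07 and -0.12 ± 0.07 (SE; limma adjusted p = 0.411 and 0.239). All 3 genes lie on chromosome 7. Their RefSeq windows are shown because near relatives gave such unequal results. Ifitm3, minus strand at chr7:141010695-141010994, held 2 ISRE matches that begin 2 and 19 bases after the start, and 1 GAS match, 13 bases after it, that overlaps the second ISRE match alone. Ifitm2, minus strand at chr7:140955912-140956211, held 1 ISRE match, 46 bases before the start, and Ifitm1, plus strand at chr7:140967826-140968125, held none.
Ifitm3: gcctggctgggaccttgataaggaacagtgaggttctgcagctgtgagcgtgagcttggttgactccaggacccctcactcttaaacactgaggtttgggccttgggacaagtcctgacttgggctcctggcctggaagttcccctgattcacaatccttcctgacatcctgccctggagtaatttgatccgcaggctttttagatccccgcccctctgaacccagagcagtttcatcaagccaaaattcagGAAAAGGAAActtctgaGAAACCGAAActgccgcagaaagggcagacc
Ifitm2: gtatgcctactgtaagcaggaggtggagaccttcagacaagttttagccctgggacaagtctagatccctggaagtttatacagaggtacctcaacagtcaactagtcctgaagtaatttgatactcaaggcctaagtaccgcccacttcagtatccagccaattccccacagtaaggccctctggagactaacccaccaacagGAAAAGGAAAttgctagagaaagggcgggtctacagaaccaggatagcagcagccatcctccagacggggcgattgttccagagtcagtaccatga
Ifitm1: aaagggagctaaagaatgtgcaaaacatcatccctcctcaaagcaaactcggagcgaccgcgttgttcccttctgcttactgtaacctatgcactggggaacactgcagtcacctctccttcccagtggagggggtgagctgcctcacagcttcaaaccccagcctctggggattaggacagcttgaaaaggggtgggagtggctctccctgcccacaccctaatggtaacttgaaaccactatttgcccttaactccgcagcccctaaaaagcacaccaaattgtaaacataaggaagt

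Antigen processing genes changed by little, and the peptide transporter rose while its bridge to MHC class I fell. Of 8 measured members 5 were called (36.9% of all genes), 3 higher (17.8%) and 2 lower (19.1%) in tumour cultures. Tap1 and Tap2 form the transporter that carries peptides into the endoplasmic reticulum. Tap1 read 8.41, 8.55 and 8.37 in mGC1_GFAP, 8.25, 8.37 and 8.18 in mGC2_NES and 8.22, 8.68 and 8.57 in mGC3_CNP cultures, against 7.91, 7.89 and 7.99 in NSC cultures. Every tumour culture was above every NSC culture. The difference was 0.47 ± 0.09 (SE; limma adjusted p = 0.00142). Tap2 had 8.29, 8.70 and 9.01 as lowest, median and highest tumour values, against 8.26, 8.11 and 8.38 in NSC cultures, a difference of 0.47 ± 0.10 (limma adjusted p = 0.0034), with mGC1_GFAP replicate 3 inside the NSC range.

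Tapbp encodes tapasin, which holds MHC class I molecules at the transporter while they load peptide. It read 8.81, 8.56 and 8.50 in mGC1_GFAP, 9.27, 9.16 and 9.18 in mGC2_NES and 9.06, 8.81 and 8.84 in mGC3_CNP cultures, against 9.15, 9.40 and 9.20 in NSC cultures. The mGC1_GFAP and mGC3_CNP cultures were below all NSC cultures and the mGC2_NES cultures were within their range. The difference over the 3 tumour groups was -0.34 ± 0.08 (SE; limma adjusted p = 0.0067).

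Psmb8, Psmb9 and Psmb10 are the catalytic subunits of the immunoproteasome, the form of the proteasome that interferon gamma induces. Psmb9 had 8.41, 8.52 and 8.63 as lowest, median and highest tumour values, against 8.33, 8.19 and 8.40 in NSC cultures, with no overlap and a difference of 0.19 ± 0.06 (SE; limma adjusted p = 0.0269). Psmb10 had 8.99, 9.19 and 9.42 in tumour cultures, against 9.43, 9.34 and 9.42 in NSC cultures, a difference of -0.19 ± 0.07 (limma adjusted p = 0.0387). Both calls were marginal: Psmb9 was not called after quantile normalization (adjusted p = 0.0592) or without the G/tv-a or the N/tv-a NSC culture (adjusted p up to 0.165), and Psmb10 was not called in 8 of 12 fits that left out 1 array, with a variance trend or with array weights. Psmb8 differed by -0.13 ± 0.07 (limma adjusted p = 0.197) below 7.42. Tap1 and Psmb9 lie head to head on chromosome 17, where their promoter windows share 275 bases, and neither window held an ISRE match.

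B2m, the invariant light chain of MHC class I, was high in both groups: it averaged 12.08 ± 0.21 in tumour cultures and 11.99 ± 0.12 in NSC cultures (SD, n = 9 and 3), a difference of 0.09 ± 0.12 (limma adjusted p = 0.606). Nlrc5, the transactivator of MHC class I genes, was measured by 19 probe sets. Its brightest probe set differed by -0.10 ± 0.05 (limma adjusted p = 0.182), and 2 of the 19 were called lower, at -0.44 and -0.32. The classical heavy chains H2-K1 and H2-D1 were not analysed here, so the data do not show the level of the complete MHC class I molecule.

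The 3 tumour groups were then set against the same 3 NSC cultures one at a time, and since they share these controls the counts are given side by side only. In mGC1_GFAP cultures 15 members were called (limma; 29.3% of all genes), 4 higher (13.9%) and 11 lower (15.4%). In mGC2_NES cultures 17 were called (35.0% of all genes), 8 higher (16.9%) and 9 lower (18.0%). In mGC3_CNP cultures 14 were called (30.6% of all genes), 6 higher (15.1%) and 8 lower (15.4%). Called with the same sign in all 3 were 10 members: Stat2, Mx2 and Tap1 as higher, and Ifih1, Dhx58, Oasl2, Gbp3, Bst2, Parp9 and Ifitm3 as lower. The share of all genes called in all 3 was not counted, and the shared NSC cultures tie the 3 calls together. The count of 10 is therefore not shown to be particular to these members. Ifih1, Dhx58, Gbp3 and Ifitm3 kept all 3 calls in each of the 12 fits that left out 1 array. The other 6 each lost the call of 1 group in some of these fits. For mGC1_GFAP, Stat2 lost it in 6 fits (adjusted p up to 0.0964), without any 1 of the mGC1_GFAP or NSC cultures, and Bst2 in 4 (up to 0.0822), without mGC1_GFAP replicate 1 or 3 or the N/tv-a or C/tv-a NSC culture. For mGC2_NES, Oasl2 lost it in 5 (up to 0.105), without any 1 mGC2_NES culture or the G/tv-a or C/tv-a NSC culture. Tap1 in mGC2_NES lost it in 5 (up to 0.117), without replicate 1 or 2 or any 1 NSC culture, and after quantile normalization (adjusted p = 0.0579). For mGC3_CNP, Parp9 lost it in 5 (up to 0.118), without any 1 mGC3_CNP culture or the G/tv-a or C/tv-a NSC culture, and Mx2 in 3 (up to 0.0821), without replicate 1 or 2 or the G/tv-a NSC culture. The size of the Ifitm3 fall was -6.68 ± 0.24, -6.20 ± 0.24 and -6.56 ± 0.24, and that of Gbp3 was -2.79 ± 0.10, -2.89 ± 0.10 and -2.91 ± 0.10 in mGC1_GFAP, mGC2_NES and mGC3_CNP cultures. Members called in a single group included Ifnar1 and Irf3 in mGC1_GFAP, Ifit3, Ifi35, Rsad2, Rtp4 and Xaf1 in mGC2_NES, and Psmb9 in mGC3_CNP cultures, but the tests between tumour groups below did not call any of these 8. Leaving out 1 array gave 11 to 17, 12 to 18 and 12 to 16 called members for the 3 groups.

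**Figure D3:**
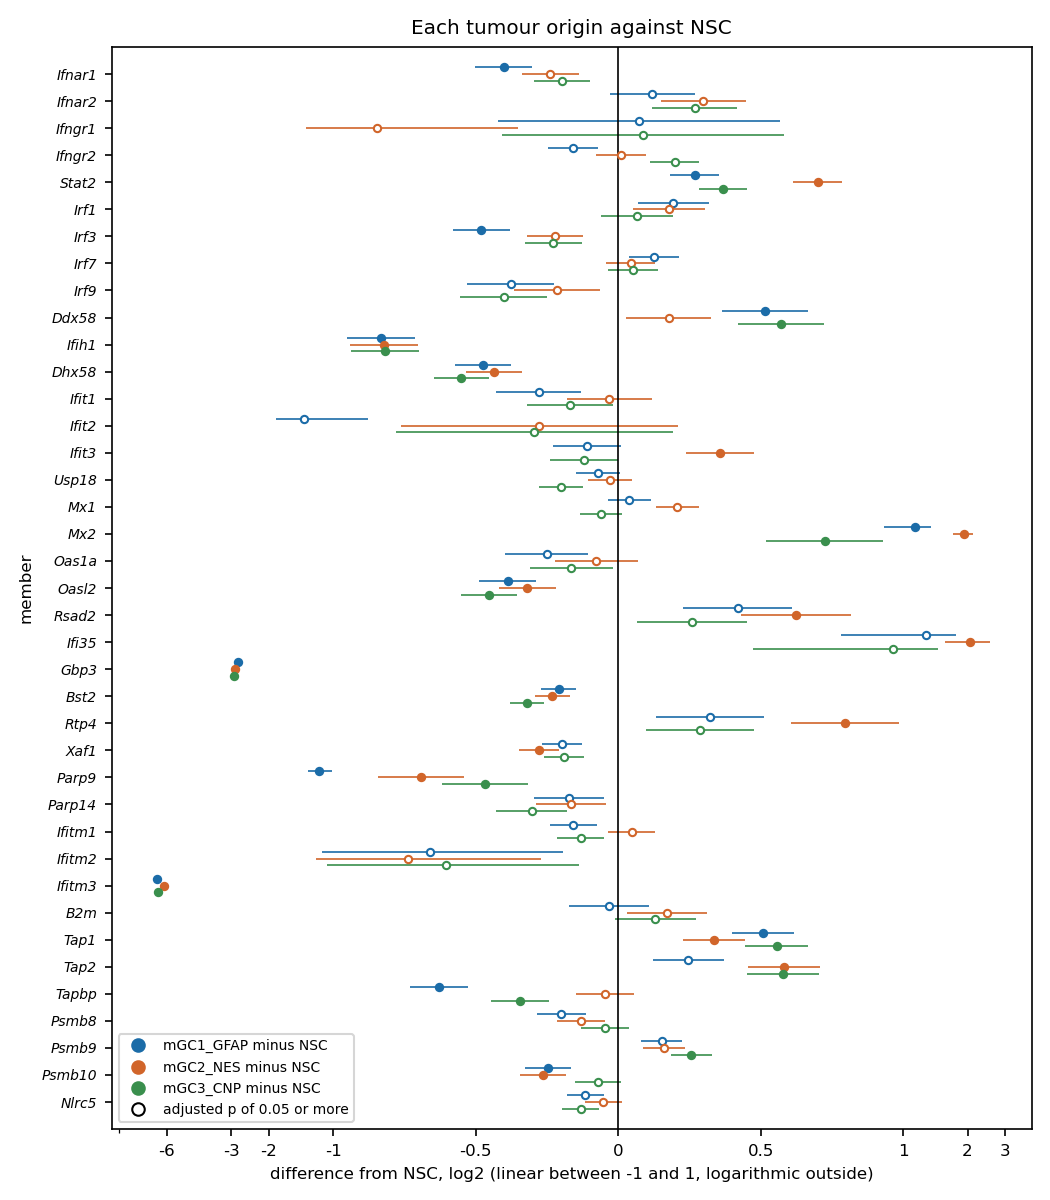
Difference of each tumour group from NSC on the log2 scale (limma estimate ± SE, n = 3 against 3; axis linear between -1 and 1 and logarithmic outside), with filled circles where the adjusted p was under 0.05. The 3 groups lie together for Ifitm3, Gbp3 and Ifih1 and apart for Mx2, Stat2 and Tapbp.

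Between tumour groups, compared on the 9 tumour arrays alone, few members differed. Between mGC1_GFAP and mGC2_NES 2 members were called (6.05% of all genes), both lower in mGC1_GFAP. Stat2 averaged 8.29 ± 0.04 in mGC1_GFAP and 8.72 ± 0.18 in mGC2_NES cultures (SD, n = 3 each), a difference of -0.43 ± 0.09 (SE; limma adjusted p = 0.0291) that was lost in 4 of 9 fits leaving out 1 array, those that left out an mGC1_GFAP culture or mGC2_NES replicate 2. Tapbp averaged 8.62 ± 0.16 in mGC1_GFAP and 9.20 ± 0.06 in mGC2_NES cultures (SD, n = 3 each), a difference of -0.58 ± 0.10 (SE; limma adjusted p = 0.0125) that was kept in 9 of 9 such fits. In both genes no mGC1_GFAP culture overlapped an mGC2_NES culture. This adds no separate support, since both were picked by their calls on the same values, and the share of all genes without overlap was not counted.

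Between mGC1_GFAP and mGC3_CNP 0 members were called (0.451% of all genes), and between mGC2_NES and mGC3_CNP 0 were called (0.472% of all genes; limma). At an unadjusted p under 0.05 were 5 of 39 members in the first comparison, beside 2497 of all 19934 genes. In the second there were 9 of 39 members, beside 2648 of all 19934 genes. A moderated F test across the 3 tumour groups called 2 members (3.96% of all genes), Tapbp (limma adjusted p = 0.0327) and Mx2 (limma adjusted p = 0.044). Mx2 averaged 6.36 ± 0.36, 7.14 ± 0.15 and 5.94 ± 0.43 in mGC1_GFAP, mGC2_NES and mGC3_CNP cultures (SD, n = 3 each), all below 7.42. Mx2 was called in none of 9 fits that left out 1 array (adjusted p 0.0509 to 0.14) and not with the replicate number as a block (0.0746), and Tapbp in 3 of them (adjusted p at most 0.0889 in the other 6).

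Other genes of the interferon pathway, from lists of 122 genes with 106 measured, were read for context. Of these, 41 were called between tumour and NSC cultures, 13 higher and 28 lower (limma, with the background of 36.9% given above). The ligands were near their NSC values: of 9 interferon genes measured only Il28a, a type III interferon, was called, at -0.18 ± 0.05 (SE; limma adjusted p = 0.0136). It read 8.36, 8.48 and 8.59 as lowest, median and highest in tumour cultures, against 8.61, 8.66 and 8.69 in NSC cultures. In the MHC class II list only H2-DMa was called among 6, higher by 1.65 ± 0.12 (limma adjusted p = 9.12e-07). H2-DMa edits the peptides on class II molecules, and the class II chains H2-Aa, H2-Ab1 and H2-Eb1, with Cd74 and the transactivator Ciita, differed by 0.02 to 0.07. For H2-Ab1 this averages groups on both sides of NSC: it differed by -0.34 ± 0.12 in mGC1_GFAP, 0.64 ± 0.12 in mGC2_NES and -0.18 ± 0.12 in mGC3_CNP cultures (SE; limma adjusted p = 0.0468, 0.00107 and 0.293), at group means below 7.42.

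Among sensing genes 8 of 15 were called (36.9% of all genes), 1 higher (17.8%) and 7 lower (19.1%). Myd88, the adaptor of most Toll-like receptors, averaged 7.28 ± 0.30 in tumour cultures and 8.78 ± 0.35 in NSC cultures (SD, n = 9 and 3), a difference of -1.50 ± 0.17 (SE; limma adjusted p = 2.72e-05). Tlr3, the endosomal receptor of double-stranded RNA, averaged 6.77 ± 0.57 in tumour cultures and 8.12 ± 0.36 in NSC cultures, a difference of -1.35 ± 0.32 (limma adjusted p = 0.00547). Trim25, a ubiquitin ligase that activates RIG-I, differed by -1.45 ± 0.08, and Tlr4, the receptor of bacterial lipopolysaccharide, by -1.15 ± 0.27 (limma adjusted p = 1.02e-07 and 0.00549), both with readings below 7.42 in every culture. The signalling list had 6 of 15 called, 4 higher and 2 lower, a share (40.0%) near the 36.9% of all genes. Irf8, a transcription factor best known from myeloid cells, averaged 9.42 ± 0.35 in tumour cultures and 7.71 ± 0.13 in NSC cultures (SD, n = 9 and 3) with no overlap, a difference of 1.72 ± 0.19 (limma adjusted p = 2.55e-05), while no microglia marker but Cx3cr1 and Cd68 passed 7.42. Pias1, an inhibitor of activated STAT proteins, and Ptpn6, the phosphatase SHP-1, were higher by 0.45 ± 0.05 and 0.42 ± 0.09, and Socs3, a feedback inhibitor of cytokine receptors, differed by -0.28 ± 0.09 (limma adjusted p = 4.95e-05, 0.0028 and 0.0311).

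Of 46 other interferon-stimulated genes 21 were called (36.9% of all genes), 6 higher (17.8%) and 15 lower (19.1%). Gbp7, a paralogue of Gbp3 on the same chromosome, averaged 5.84 ± 0.19 in tumour cultures and 9.06 ± 0.43 in NSC cultures (SD, n = 9 and 3), a difference of -3.22 ± 0.16 (SE; limma adjusted p = 4.56e-08). Irgm1, an immunity-related GTPase, moved the other way, with 11.05 ± 0.34 in tumour cultures and 8.50 ± 0.12 in NSC cultures, a difference of 2.55 ± 0.14 (limma adjusted p = 8.86e-08). Ifi27, a mitochondrial interferon-induced protein, rose by 1.64 ± 0.10 (limma adjusted p = 1.54e-07), with group means of 10.66 ± 0.26 in tumour cultures and 9.03 ± 0.21 in NSC cultures. Ifi203, a DNA-binding protein of the PYHIN family, differed by -2.54 ± 0.46 (limma adjusted p = 0.000944), and its NSC values were uneven at 5.47, 8.61 and 7.60 in the G/tv-a, N/tv-a and C/tv-a cultures.

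In the other antigen presentation genes 4 of 15 were called (36.9% of all genes), 1 higher and 3 lower, with sizes of 0.21 to 0.46 log2 units. Tapbpl, a tapasin-related editor of MHC class I peptides, was higher by 0.38 ± 0.08 (SE; limma adjusted p = 0.00175). Psmb6 and Psmb7, the constitutive proteasome subunits that Psmb9 and Psmb10 replace, differed by -0.24 ± 0.07 and -0.21 ± 0.07 (limma adjusted p = 0.023 and 0.0458). H2-Ke6, which lies in the MHC region and encodes a steroid dehydrogenase and no antigen-presenting molecule, differed by -0.46 ± 0.11 (limma adjusted p = 0.00546). Without single arrays the Il28a, Socs3, Psmb6 and Psmb7 calls were lost in 1, 5, 2 and 9 of 12 fits.

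**Figure D4:**
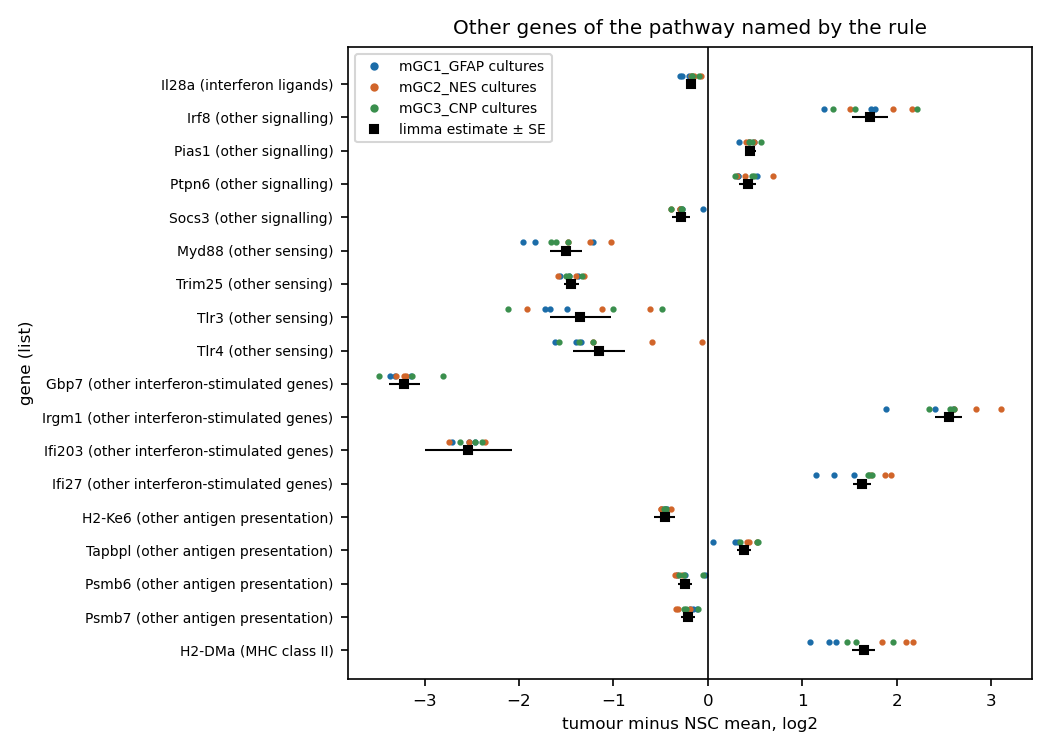
Tumour minus NSC difference of 18 further pathway genes on the log2 scale: circles are single tumour cultures against the NSC mean, squares the limma estimate ± SE (9 tumour and 3 NSC cultures). Gbp7, Ifi203, Myd88, Trim25, Tlr3 and Tlr4 lie left of 0 and Irgm1, Irf8, H2-DMa and Ifi27 right of it.

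Some members were set apart by 1 tumour culture. Ifngr1 read 7.33 in mGC2_NES replicate 2 and 9.72 to 10.04 in the other 8 tumour cultures, a gap that put the culture near the level of absent transcripts for the ligand-binding chain of the interferon gamma receptor. The same culture was lowest for Ifitm2, at 8.95. Ifit2 read 6.76 in mGC1_GFAP replicate 3 and 8.67 or more in the other 8, and B2m was lowest in the same culture, at 11.60. Across all genes, mGC1_GFAP replicate 3 was the lowest tumour culture by over 1 log2 unit in 30 genes, and mGC2_NES replicate 2 in 3 genes.

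**Figure D5:**
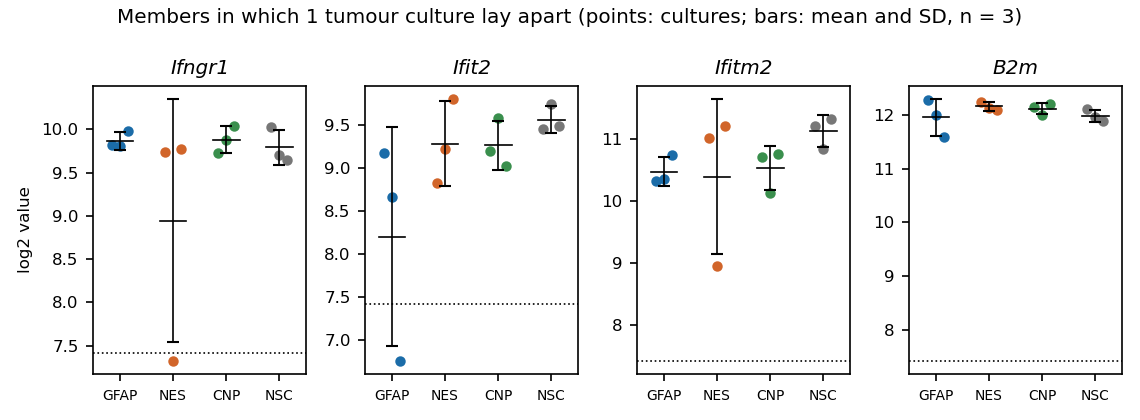
Log2 values of Ifngr1, Ifit2, Ifitm2 and B2m in each culture (points), with the mean and SD of each group (bars, n = 3) and 7.42 as a dotted line; each panel has its own axis. One mGC2_NES culture stands below the rest in Ifngr1 and Ifitm2, and 1 mGC1_GFAP culture in Ifit2.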

How the data were processed

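Expression was measured on 12 arrays. The deposited log2 values are RMA summaries that the authors made, with Affymetrix Expression Console according to the submitters' processing notes. RMA removes background, equalises the distributions of the arrays and summarises each probe set, so a shift shared by most genes cannot be seen. The software version and genome build were not given in the sources used here. Of 28270 probe sets, 23397 were annotated, 21780 with 1 symbol and 1617 with several.

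Values were used as deposited, without a filter. Tests used R 4.3.3 and limma 3.58.1 (lmFit, eBayes, two-sided, Benjamini-Hochberg over 21780 probe sets), checked on simulated data. For tumour against NSC, the 3 tumour groups had equal weight in a fit of 12 arrays, and tumour groups were compared on 9 arrays. The number of arrays limits the precision. The members and all lists were chosen with earlier results of these data known. All members are named, and values per culture are printed for all IFITM genes, for up to 5 called members per role with the largest differences, and for members called between tumour groups. Of each further list, up to 4 called genes with the largest differences are named. Promoter windows came from RefSeq GRCm38.p6, and protein sequences were not used here. Replicate numbers were checked by correlating deviations from group means: same-numbered pairs ran from 0.0022 to 0.2544, with all 3 pairs of mGC2_NES and mGC3_CNP at 0.1319 or more, and 14 of 18 other pairs were negative. Deviations within a group cancel out, so positive same-numbered pairs bring negative other pairs, which are no separate evidence. Alternatives were a variance trend, a mean level of at least 6, quantile normalization again, median centring, array quality weights, mouse line or replicate blocks, and leaving out each array.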

Additional observations from a re-analysis of the deposited data

Results flagged for a closer look

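In 5 of the 39 members 1 of the 9 tumour cultures lay so far from the others that its gap to the nearest, as a share of the whole range, passed Dixon's critical value for 9 samples; chance alone gives such a gap in about 1 of 20 groups. Ifngr1 was lowest in mGC2_NES replicate 2, at 7.33, with the next culture at 9.72. Without that culture the tumour minus NSC difference of Ifngr1 was 0.041, in place of -0.23. Ifitm2 was lowest in the same culture, at 8.95, with the next at 10.12. Ifit2 was lowest in mGC1_GFAP replicate 3, at 6.76, with the next at 8.67. B2m was lowest in that culture too, at 11.60, with the next at 11.997. Ifnar2 was highest in mGC2_NES replicate 1, at 11.33, with the next at 10.96.

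By the limma test of the difference itself, Stat2 and Tapbp differed between mGC1_GFAP and mGC2_NES cultures. Stat2 differed by -0.43 (limma adjusted p = 0.0291) and Tapbp by -0.58 (limma adjusted p = 0.0125) for mGC1_GFAP minus mGC2_NES. The Stat2 call was lost in 4 of 9 fits that left out 1 array. Each group came from 1 mouse line, so tumour origin and mouse line cannot be told apart.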

How the results depend on the processing

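Over 7 other settings, 540 of 556 values of single genes kept their direction and their side of the threshold, 14 dropped below it and 2 (Irf9) passed it. Leaving out 1 array at a time gave 14 to 21 members called between tumour and NSC cultures (4 to 9 higher, 9 to 13 lower), 11 to 17 for mGC1_GFAP (2 to 5 higher, 9 to 12 lower), 12 to 18 for mGC2_NES (5 to 9 higher, 7 to 9 lower) and 12 to 16 for mGC3_CNP against NSC (4 to 6 higher, 7 to 10 lower). Such fits gave 1 to 3 members, all lower in mGC1_GFAP, against mGC2_NES, 0 to 1 between mGC1_GFAP and mGC3_CNP (lower), 0 between mGC2_NES and mGC3_CNP, and 0 to 1 by the F test. The difference of Ifngr1 ranged from -0.37 to 0.041, and turned positive without mGC2_NES replicate 2 alone; it was called in none of these fits. After quantile normalization the F test called 1 member, without Mx2 (adjusted p = 0.0505); the cause was not tested. The correlations of same-numbered cultures were all positive but at most 0.2544, and over 0.1 in 5 of 9 pairs only. They are too low to show that equal numbers mean pairing. The 3 pairs of mGC2_NES and mGC3_CNP were among these 5, and of 9 cultures 6 correlated best with one of their own number. With the replicate number as a block 3 members were called between mGC1_GFAP and mGC2_NES and 2 by the F test, not Mx2 (adjusted p = 0.0746); between mGC2_NES and mGC3_CNP 0 were called with or without it. With the mouse line as a block 19 members were called between tumour and NSC cultures, 7 higher and 12 lower. The limits are 3 arrays a group, background readings that reach 7.42 in the 4 transcripts taken as absent and 8.01 in Prm3, and 15 or 17 members at or below these in both groups.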

Other observations

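Prm1, a protamine gene expected in spermatids and left out of the transcripts taken as absent, read 13.49 in the NSC culture of the G/tv-a line and 7.06 to 7.77 in the other 11 cultures. Genes outside the members that differed between tumour groups were singled out after their values were seen. The MHC class II chain gene H2-Ab1 averaged 5.78 ± 0.11 in mGC1_GFAP, 6.75 ± 0.22 in mGC2_NES and 5.93 ± 0.14 in mGC3_CNP cultures (SD, n = 3 each), all below 7.42, with differences of -0.98 for mGC1_GFAP minus mGC2_NES and 0.82 for mGC2_NES minus mGC3_CNP (limma adjusted p = 0.00484 and 0.0235). The second was not called with the replicate number as a block (adjusted p = 0.0508) or in 4 of 9 fits that left out 1 array, those without mGC2_NES replicate 2 or 3 or mGC3_CNP replicate 1 or 3 (up to 0.105). H2-DMa averaged 9.49 ± 0.14 in mGC1_GFAP and 10.29 ± 0.18 in mGC2_NES cultures (SD, n = 3 each), a difference of -0.79 (limma adjusted p = 0.0147), not called without mGC1_GFAP replicate 3 or mGC2_NES replicate 2 (up to 0.0553). Pml, the scaffold of nuclear bodies, averaged 9.15 ± 0.15 in mGC2_NES and 7.72 ± 0.17 in mGC3_CNP cultures (SD, n = 3 each), a difference of 1.43 (limma adjusted p = 0.0205), not called in 5 of 9 such fits, those without mGC2_NES replicate 2 or 3 or any 1 mGC3_CNP culture (up to 0.0797).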
